A study of Mus musculus with 8 samples.

Results

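Afp, H19, Igf2, Gpc3 and Dlk1 are genes with high levels in fetal liver and low levels in adult liver, and Zhx2 and Zbtb20 encode transcription factors known to repress such genes after birth. Their levels were examined in liver of NZO and B6 mice. The members were found by name among the probes of the array, which gave 7 genes of 34836 names and 15 probes of 55681. H19 was read by 7 probes, Gpc3 and Dlk1 by 2 probes each and the other members by 1 probe each.

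Total RNA of 4 NZO livers (mice 007, 003, 009 and 011, strain NZO/HiBomDife) and 4 B6 livers (mice 011, 010, 015 and 009, strain C57BL/6) was measured on Agilent arrays with 1 colour and 1 mouse per array. All mice were male, 6 weeks of age and fed a diet with 45% fat, so that the groups shared sex, age and diet and differed in strain. NZO is the obese and diabetes-susceptible strain and B6 the lean and diabetes-resistant strain of the study, which compared them to find genes whose level may be raised in NZO by SNPs in miRNA binding sites. The labels name no litter or cage, and p-values therefore measure the spread between these 8 mice. Between 50.4% and 60.1% of the spots of an array were well above background. Only slide 1 held both strains (NZO 003, B6 010 and B6 015). With 4 arrays per strain, the number of arrays sets the precision.

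Levels are given as the log2 processed signal minus the 75th percentile of the same array, so that 0 marks the 75th percentile. Such levels can be compared between mice at the same probe and not between probes. A log2 fold change is the NZO mean minus the B6 mean, with its standard error as SE. A probe was tested with limma when every array of NZO or every array of B6 was well above background at it, and it was called when the p adjusted by Benjamini-Hochberg over all 27642 probes tested was at most 0.05.

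In the fetus, hepatocytes secrete alpha-fetoprotein, the product of Afp, in place of much of the albumin made later. H19 and Igf2 are neighbouring imprinted genes that share enhancers and are expressed from opposite parental alleles. Zhx2 is known from the BALB/cJ strain, in which a natural mutation of it leaves Afp and H19 at higher levels in adult liver, and Zbtb20 represses Afp in the liver after birth.

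The sequence before the Afp start is shown because Afp was the member with the clearest difference between the strains, and a stretch before the start of its relative Afm, which was also called, is shown for comparison. Both come from RefSeq on GRCm38.p6, and capitals mark TATAAA, the letters of a TATA box, which were searched on both strands. The Afp sequence ends at the base before the annotated start and lies at chr5:90490464-90490713 on the plus strand. The Afm sequence lies at chr5:90518889-90518948 on the plus strand.
Afp: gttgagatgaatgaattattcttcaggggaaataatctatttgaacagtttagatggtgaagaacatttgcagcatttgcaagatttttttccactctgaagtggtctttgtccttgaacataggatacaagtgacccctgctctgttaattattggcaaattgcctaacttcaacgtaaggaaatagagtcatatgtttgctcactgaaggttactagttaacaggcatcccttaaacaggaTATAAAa
Afm: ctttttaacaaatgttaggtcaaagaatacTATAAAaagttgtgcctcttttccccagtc
TATAAA began 7 bases before the annotated start in Afp and 30 in Afm. It occurred in 4473 of 32851 promoter windows of 300 bases (13.6%), and not in the windows of Alb, Gc, Igf2, Gpc3, Dlk1 or Zbtb20. H19 and Zhx2 had no window to search. These matches describe letters and are no measure of binding.

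H19 is transcribed from the minus strand of chromosome 7, and the probes that were above background on all 8 arrays are shown because they carry the account of the variation of H19 between mice. On mm9, the build of the probe coordinates, H19 probe 1 lies at chr7:149761492-149761551, probe 2 at chr7:149761756-149761815 and probe 3 at chr7:149761693-149761752, all within the RNA of the same gene.
H19 probe 1: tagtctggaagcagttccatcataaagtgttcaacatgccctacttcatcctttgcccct
H19 probe 2: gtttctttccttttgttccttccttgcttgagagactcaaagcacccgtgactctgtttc
H19 probe 3: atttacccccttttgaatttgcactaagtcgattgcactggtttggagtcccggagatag

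Afp rose in NZO, Gpc3 was above background in B6 livers and not in NZO livers at its brightest probe, H19 overlapped between the strains, and Igf2, Dlk1 and Zhx2 were at or near background. Of the 15 probes, 7 probes of 4 members (Afp, H19, Gpc3 and Zbtb20) could be tested, 1 was called higher (Afp) and 1 lower (Gpc3, whose probe entered the test through the B6 arrays alone). Over all probes tested, 14.2% were called (6.78% higher and 7.44% lower in NZO), and 2 of 7 probes are too few to set the members apart from this background. In whole liver, fewer cells of a type and less RNA per cell cannot be told apart.

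**Figure D1:**
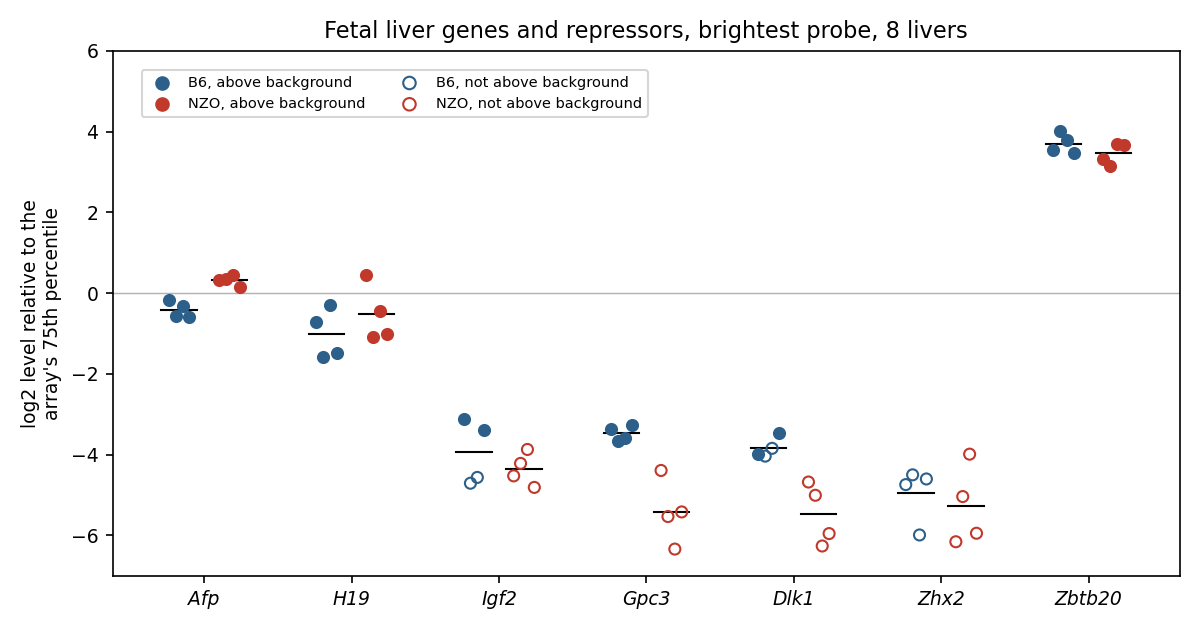
Log2 level relative to the array's 75th percentile at the brightest probe of each member, with 1 point per liver (blue B6, red NZO, filled when well above background, open when not) and black lines for the means of 4 livers. The 4 NZO points of Afp, from 0.14 to 0.44, lie above the 4 B6 points, and all points of Zhx2 and all NZO points of Igf2, Gpc3 and Dlk1 are open. Heights of different genes come from different probes and are not comparable.

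The probe of Afp, the gene of the major serum protein of the fetus, lies on mm9 at chromosome 5 from 90937781 to 90937840 and was printed as 10 spots. The level in NZO was 0.33 in mouse 007, 0.35 in 003, 0.44 in 009 and 0.14 in 011. In B6 it was -0.17 in 011, -0.57 in 010, -0.32 in 015 and -0.60 in 009. The strains did not overlap, and all 8 arrays were above background. The log2 fold change was 0.73 (SE 0.13, 95% confidence interval 0.44 to 1.02, limma adjusted p = 0.00619), a 1.66-fold higher level in NZO. It also met the rule of the study's methods, a p up to 0.05 and at least 0.7 in size on the log2 scale. The p was taken here as unadjusted, from a t-test with the Welch correction that the paper names. At that rule 2 of the 7 tested probes of the members passed (Afp and Gpc3, the latter with NZO at background), as did 10.5% of all probes. With the limma p in its place the same 2 probes and 12.2% of all probes passed.

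All NZO livers were above all B6 livers at 11.3% of the probes tested. The level of Afp on each array is a mean over its 10 spots, and its within-strain SD was 0.17. The difference was 0.80 on slide 1, 0.76 among the 5 arrays of scan day 1 and 0.71 among the 3 arrays of scan day 2. Without any 1 mouse it ranged from 0.67 to 0.81, with adjusted p up to 0.0219. Normexp background correction gave 0.50, and the 75th percentile over probes above background on all 8 arrays gave 0.68. Both were still called but lay below 0.7. On the raw intensities of the deposited table the difference was 0.40 (adjusted p = 0.0782), on a scale that moved the median of all probes to -0.15. It was 0.80 with slide as a fixed block (adjusted p = 0.143).

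Alb and Afm lie on either side of Afp on the plus strand of chromosome 5, and with Gc they form the albumin family of serum carrier proteins. Afm, which encodes the vitamin E-binding protein afamin, was 7.23, 7.36, 7.50 and 7.22 in NZO 007, 003, 009 and 011 and 6.86, 6.99, 7.01 and 6.83 in B6 011, 010, 015 and 009. Its log2 fold change was 0.41 (SE 0.10, limma adjusted p = 0.0315), and the strains did not overlap. The call was lost in 6 of the 8 fits without 1 mouse, namely without NZO 003 (0.40), NZO 009 (0.35), B6 011 (0.39), B6 010 (0.43), B6 015 (0.44) or B6 009 (0.38), and with quantile normalization, where the log2 fold change was 0.26.

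The Alb level was 11.20, 11.24, 11.18 and 11.21 in the NZO mice and 10.85, 11.17, 11.07 and 10.66 in the B6 mice in the same order. Every NZO liver was above every B6 liver by a small margin, and the log2 fold change of 0.27 did not pass the threshold (SE 0.12, limma adjusted p = 0.206). For Alb it was 0.067 with quantile normalization and 0.0060 on the deposited table. Gc, the vitamin D-binding protein, had log2 fold changes of 0.19 at its brighter probe (adjusted p = 0.330) and 0.13 at the other. With quantile normalization the brighter probe gave 0.065. Of the 4 genes of the family, 2 were thus called higher and 0 lower, with a median log2 fold change of 0.34. Over all probes tested, 6.78% were called higher and 7.44% lower, and the median was 0.01. These 4 genes are too few to set the family apart from that share.

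The log2 ratio of Afp to other genes on the same array does not depend on the scaling of the arrays, and it was examined after the values were seen and not tested. The ratio of Afp to Alb was higher in NZO by 0.46, and that of Afp to Afm by 0.32, and for both the strains overlapped. Relative to the mean of the hepatocyte genes Alb, Ttr, Apoa1, Cps1 and Tat, Afp was higher in NZO by 0.71, with every NZO liver above every B6 liver.

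**Figure D2:**
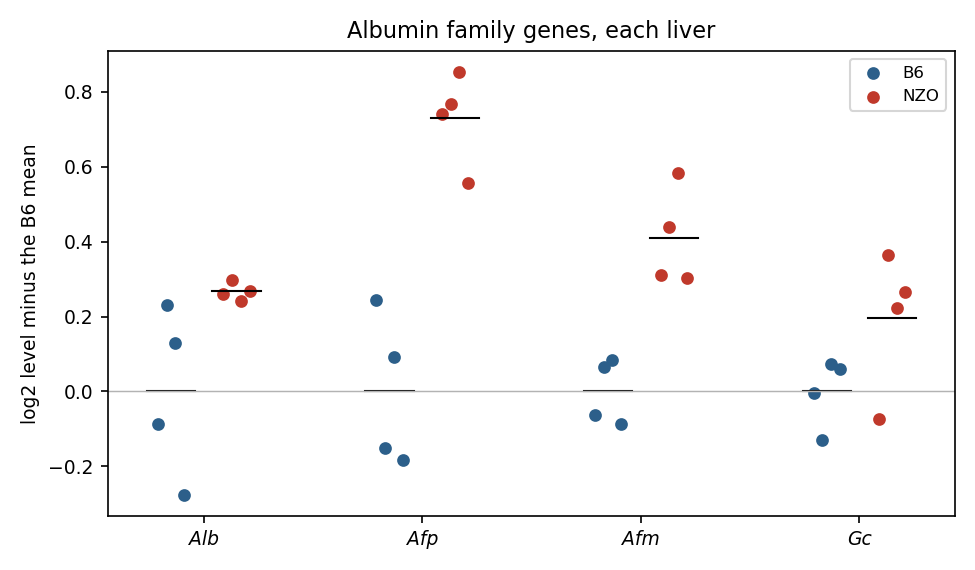
Log2 level of the albumin family genes in each liver minus the B6 mean of the same probe, with 1 point per liver and black lines for the means of 4 livers. The mean of NZO is 0.27 for Alb, 0.73 for Afp, 0.41 for Afm and 0.19 for Gc, and in Gc the strains overlap.

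H19, an imprinted gene of a long noncoding RNA, differed between livers of the same strain. At probe 1 its level was 0.44 in NZO 007, -1.10 in NZO 003, -0.43 in NZO 009 and -1.00 in NZO 011. In B6 it was -0.73 in mouse 011, -1.58 in 010, -0.30 in 015 and -1.48 in 009. The strains overlapped at each of the 7 probes. The log2 fold change was 0.50 at probe 1 (SE 0.41, 95% confidence interval -0.44 to 1.43, limma adjusted p = 0.473). The other probes tested gave 0.48 for probe 2, 0.26 for probe 3 and -0.19 for probe 4, with adjusted p from 0.529 to 0.775. Probe 4 was above background on 2 of 4 NZO arrays and passed the filter through B6, so that its value rests in part on undetected NZO levels.

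The spread of H19 was carried by the same livers at most probes. NZO 007 was the highest NZO liver at 7 of 7 probes and NZO 003 the lowest at 5. B6 015 was the highest B6 liver at 6 of 7 probes and B6 010 the lowest at 4. The within-strain SD at probe 1 was 0.66, above that of 92.6% of 3544 probes of similar level (median 0.25). Over the 8 arrays, the 3 probes above background on all of them correlated with each other with Pearson r between 0.63 and 0.90, and the median over the 21 pairs of all 7 probes was 0.63, a description of probes for the same RNA on the same arrays.

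On slide 1 the difference at probe 1 was -0.16, on scan day 1 it was 0.10 and on scan day 2 it was 1.54. NZO 007, the highest for H19, also stood apart for skeletal muscle genes. The summed linear level (in units of the array's 75th percentile) of Myh4, Acta1 and Tnnt3, 3 of 4 muscle genes listed, was 16.7 in NZO 007 and 0.12 to 0.29 in the other NZO livers. The summed level of the leukocyte markers was also highest in NZO 007, at 12.9 against 4.88 to 6.31 in the other NZO livers and 4.70 to 7.57 in B6. That sum was almost all Cd3e, a T cell gene with an SD of 0.67 among the NZO livers, while the SDs of Ptprc (0.16) and Cd79a (0.14) were small. In B6 the muscle sum was 5.44 in 010, 1.35 in 015, 0.89 in 011 and 0.38 in 009. Myh4, the brightest of them, had a level of 2.86 in NZO 007 and 1.66 in B6 010, and the latter was the lowest B6 liver for H19 at most probes. Ckm, the fourth, was above background on 1 NZO array (007) and 2 B6 arrays. Without NZO 007 the log2 fold change of H19 was 0.18 at probe 1 and -0.070 at probe 3, and the part of muscle RNA in the H19 levels was not tested.

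**Figure D3:**
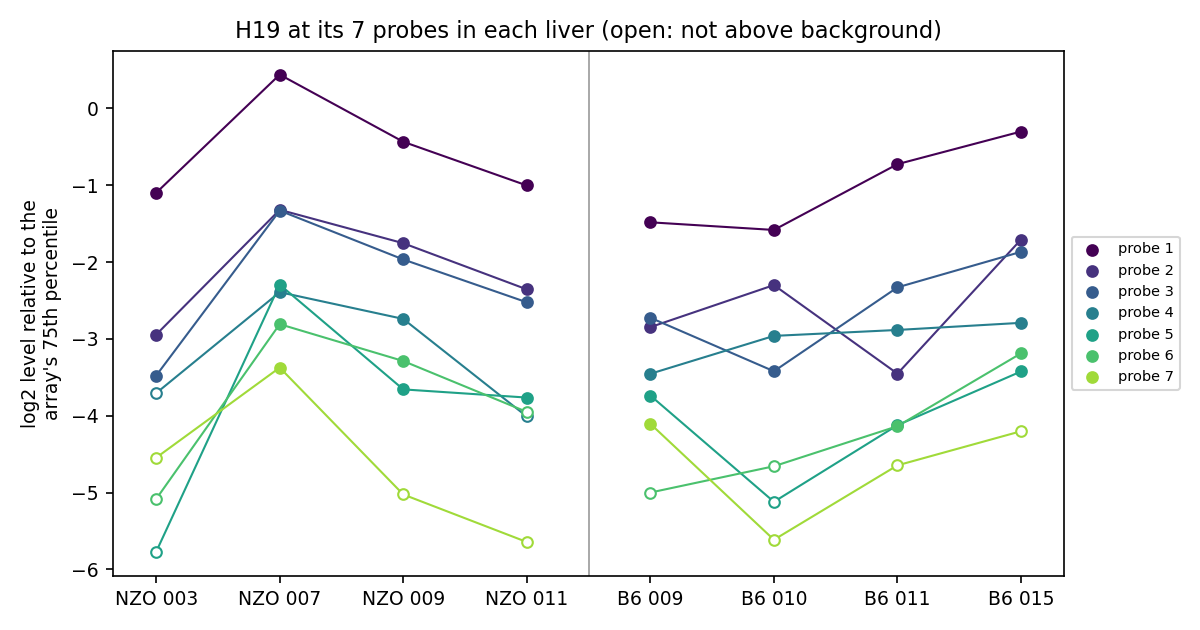
Log2 level of H19 relative to the array's 75th percentile at its 7 probes (colours, numbered from the brightest) in each liver, filled when well above background and open when not. Lines join the points of a probe within a strain. NZO 007 is the highest NZO liver at all 7 probes and B6 015 the highest B6 liver at 6, while the ranges of the strains overlap.

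Igf2, the fetal growth factor next to H19, was close to background. Its level was -4.53, -4.22, -3.87 and -4.81 in NZO 007, 003, 009 and 011, none of them above background. In B6 it was above background in mice 011 (-3.12) and 009 (-3.40) and not in 010 (-4.71) or 015 (-4.57). The probe was not tested, and no fold is given, since 2 of the 4 B6 arrays were at background too. Igf2r, the receptor that clears IGF2, had a log2 fold change of -0.11 (limma adjusted p = 0.546).

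Gpc3 encodes glypican 3, a heparan sulfate proteoglycan of the cell surface that is abundant in fetal liver and liver tumours. At probe 1 its level in B6 was -3.37 in mouse 011, -3.65 in 010, -3.59 in 015 and -3.26 in 009, all above background. The NZO values of -4.39, -5.54, -6.34 and -5.42 (007, 003, 009 and 011) were not well above background on any array. No fold is given, since NZO was at background and the limit of detection of this probe was not measured. The limma fit called the probe (adjusted p = 0.00780), but it used NZO values at background as measured, and this p gives no support to a size of the difference. The probe passed the filter through the B6 arrays alone, and all NZO livers were below all B6 livers at 10.7% of the probes tested.

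The difference at this probe was near the limit of detection. With normexp background correction the log2 fold change was -0.060 (adjusted p = 0.629), and with slide as a fixed block the call was lost (adjusted p = 0.0807). Probe 2, which lies on mm9 at chromosome X from 49740892 to 49740951 and is assigned to another transcript of Gpc3, was above background only in NZO 009 (-3.01), with the other arrays between -6.63 and -6.01. Of the other glypicans, Gpc1 (-0.41, adjusted p = 0.221), Gpc4 (-0.23, adjusted p = 0.252) and Gpc5 (0.22, adjusted p = 0.563) did not pass the threshold at their brightest probes, and Gpc2 and Gpc6 were not above background on all 4 arrays of either strain.

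Dlk1, an imprinted membrane protein of fetal hepatoblasts related to the Notch ligands, was measured near background. Probe 1 was -4.68, -5.01, -6.27 and -5.96 in NZO 007, 003, 009 and 011, with 0 of 4 arrays above background. In B6 it was above background in 011 (-3.99) and 009 (-3.46) and not in 010 (-4.04) or 015 (-3.85). All NZO values were below all B6 values, but 6 of the 8 arrays were not above background, and the probe was neither tested nor given a fold. Probe 2 was not above background on any of the 8 arrays. Among Dlk1 relatives and Notch ligands, 0 of 4 tested genes were called at their brightest probe (limma), and 0 had an unadjusted p within 0.05 there with limma or Welch's correction. A dimmer probe of the Notch ligand Dll1 was above background on 1 of 4 NZO arrays and on all B6 arrays, so that it passed the filter through B6 alone and its call as lower in NZO (adjusted p = 0.00311) gives no size, while its brightest probe gave 0.19. The dimmer probe of Dlk2 gave 0.77 (adjusted p = 0.119), against 0.26 at the brighter. Meg3, the noncoding RNA expressed from the other allele of the Dlk1 locus, had a log2 fold change of 0.65 at its brightest probe (SE 0.42, adjusted p = 0.358). Over the alternative settings it ranged from -0.88 to 1.56, and the lowest adjusted p among them was within the threshold.

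Among the repressors, Zhx2, a zinc finger and homeobox protein, could not be measured. Its probe, on mm9 at chromosome 15 from 57670417 to 57670476, gave -6.16, -5.04, -3.99 and -5.95 in NZO 007, 003, 009 and 011 and -4.74, -4.50, -5.99 and -4.61 in B6 011, 010, 015 and 009. None of the 8 arrays was well above background, and no fold is given. Its relatives were measured. Zhx1 had a log2 fold change of -0.16 (adjusted p = 0.594), and Zhx3 had 0.23 at its brightest probe (adjusted p = 0.161). Of the 3 genes of the family, 2 were tested and 0 called, while 1 had an unadjusted p within 0.05 with limma and with Welch's correction.

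Zbtb20, a BTB and zinc finger repressor, was well above background in every liver. Its level was 3.32, 3.15, 3.69 and 3.68 in NZO 007, 003, 009 and 011 and 3.54, 4.02, 3.78 and 3.46 in B6 011, 010, 015 and 009. The strains overlapped, and the log2 fold change was -0.24 (SE 0.18, 95% confidence interval -0.65 to 0.16, limma adjusted p = 0.410). The interval includes 0 and does not show that the levels were alike. On slide 1 the difference was -0.76. With the mouse number as a replicate block, a fit that rests on mice 009 and 011 of each strain, it was 0.18.

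Beyond the Zbtb20 probe, on mm9 at chromosome 16 from 43619030 to 43619089, the array held further probes, which were examined after their values were seen. Within 25000 bases downstream, 17 probes lay on the strand of Zbtb20, 3643 to 22915 bases from it. The nearest is named for an annotated transcript and the other 16 only by a stretch of the chromosome. On GRCm38.p6 RefSeq ends Zbtb20 at base 43634392. The mm9 positions were not converted to that build, so which of the probes lie within the gene was not determined. All 17 were above background on all 8 arrays. Their log2 fold changes ranged from -0.46 to -0.04 (median -0.15), and 0 were called by limma, with 0 at an unadjusted p within 0.05 by limma or Welch's correction. Their levels correlated with that of the Zbtb20 probe over the 8 arrays with Pearson r between 0.82 and 0.98 (median 0.93), as a description of probes that share arrays. On the opposite strand, 2 of 10 probes were above background on all 8 arrays. Of the 4 tested there 0 were called, while 1 had an unadjusted limma p within 0.05 and 0 with Welch's correction, and r ranged from 0.02 to 0.73. Whether these RNAs are part of the Zbtb20 transcript was not tested.

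**Figure D4:**
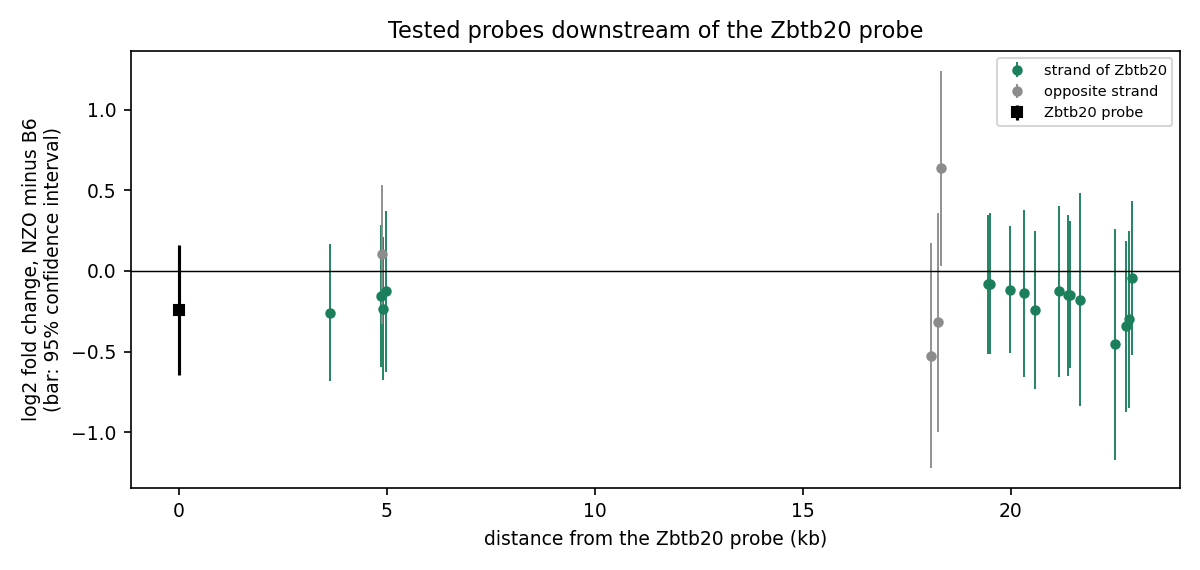
Log2 fold change (NZO minus B6) with its 95% confidence interval for the Zbtb20 probe (square) and the tested probes within 25000 bases downstream, by distance from the Zbtb20 probe in kb, on the same strand (green) and the opposite strand (grey). The 17 green points lie between -0.46 and -0.04, and 0 of them passed the adjusted threshold.

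Transcription factors known to activate Afp were measured in every liver. Of 13 such genes, among them Foxa2 and Nr5a2, all were tested and 0 were called by limma or Welch's correction, with a median log2 fold change of -0.01, while 1 had an unadjusted p within 0.05 with each test. Hnf4a, the brightest of them, had a log2 fold change of 0.03 (adjusted p = 0.912). Onecut1 was low in 2 B6 livers, at 2.09 in B6 010 and 3.89 in B6 015 against 6.04 and 6.19 in B6 011 and 009 and 5.45 to 6.56 in NZO. Its log2 fold change of 1.41 did not pass the threshold (adjusted p = 0.337). It is named for this spread, seen in the data.

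Among 8 genes reported as Zhx2 targets in mouse liver, including Afp, H19 and Gpc3, 3 were called higher and 2 lower in NZO, where 6.78% of all probes tested were higher and 7.44% lower. They were Afp, Cyp4a12a and Cyp4a12b (higher) and Cyp2a4 and Gpc3 (lower), the last with NZO values at background. These 8 genes are too few to set the list apart from those shares, and the direction reported for each target was not compared. Cyp4a12a, a male-biased fatty acid hydroxylase, was 5.97, 6.36, 5.65 and 6.19 in NZO 007, 003, 009 and 011 and 4.69, 4.65, 4.68 and 4.96 in B6 011, 010, 015 and 009. Its log2 fold change was 1.30 (adjusted p = 0.00115), and that of Cyp4a12b was 1.32 (adjusted p = 0.00193). Cyp2a4, a steroid hydroxylase, was lower in NZO (log2 fold change -1.29, adjusted p = 0.0116), with NZO between 4.64 and 5.13 and B6 between 5.70 and 6.90. The call of Cyp2a4 was lost with Welch's correction and Benjamini-Hochberg adjustment. Cyp4a12a and Cyp4a12b are near-identical, as are Cyp2a4 and Cyp2a5, and their probes may read each other's RNA. The calls of Cyp4a12a and Cyp4a12b may therefore not be separate. The lipid genes Lpl (0.07, adjusted p = 0.886) and Elovl3 (0.03, adjusted p = 0.953) did not pass the threshold. A dimmer Lpl probe, above background on all 8 arrays, gave -0.75 (adjusted p = 0.193).

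Among 16 imprinted growth genes, 11 were tested, 3 were called higher and 0 lower, with a median log2 fold change of 0.22, against 6.78% of all probes called higher, 7.44% lower and a median of 0.01. With limma 5 had an unadjusted p within 0.05, and with Welch's correction 4. Among the 5, Plagl1 (-0.35, limma adjusted p = 0.178) and Dcn (-0.37, limma adjusted p = 0.0540) were lower in NZO and the 3 called genes higher. Mest, a paternally expressed hydrolase gene, was higher in NZO at all 3 of its probes. Its brightest probe was -0.60, -0.27, -0.81 and -0.60 in NZO 007, 003, 009 and 011 and -1.06, -1.12, -1.29 and -1.31 in B6 011, 010, 015 and 009, a log2 fold change of 0.62 (SE 0.13, limma adjusted p = 0.0163). Its call was lost without B6 009 (0.59, adjusted p = 0.0535) and on the deposited table (0.31, adjusted p = 0.0952), and normexp gave 0.39. Grb10, an adaptor protein that dampens insulin signalling, had a log2 fold change of 1.25 (adjusted p = 0.0461), with B6 011 (-1.47) inside the NZO range of -1.67 to -0.74. Its call was lost without NZO 007 (1.10), NZO 003 (1.20), NZO 009 (1.29), B6 010 (1.10), B6 015 (1.08) or B6 009 (1.23). It was also lost on the deposited table (0.58, adjusted p = 0.104) and with the percentile over detected probes (1.20, adjusted p = 0.0538), and normexp gave 0.53.

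Mirg, a noncoding RNA of the Dlk1 and Meg3 locus that hosts miRNAs, differed between its probes. The brightest was 2.15, 2.49, 2.29 and 1.50 in NZO 007, 003, 009 and 011 and -2.26, -2.16, -1.77 and -2.22 in B6 011, 010, 015 and 009, a log2 fold change of 4.21 (SE 0.22, adjusted p = 1.06e-05). The other tested probe gave -0.28 (adjusted p = 0.417), and the third was not above background on any array. The difference was thus read by 1 of 3 probes.

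Oncofetal and progenitor genes, which are raised in fetal liver or after injury, gave 0 higher and 3 lower genes among 10 tested of 15, with a median log2 fold change of -0.34, where 7.44% of all probes tested were called lower. The list was chosen with earlier results of these data known, and the count is a description. The genes called lower were Sox9 (-1.47, adjusted p = 0.00887), a factor of bile duct cells, Sox4 (-1.14, adjusted p = 0.00167) and Spp1 (-0.89, adjusted p = 0.0313), which encodes osteopontin. With normexp Sox9 (-0.58) and Sox4 (-0.65) were still called, at smaller values. The other 2 tested probes of Sox4 gave -0.65 and -0.93 and were not called. Sox9 was -2.59, -2.56, -1.64 and -2.38 in NZO 007, 003, 009 and 011 and -1.12, -0.40, -1.27 and -0.51 in B6 011, 010, 015 and 009, with no overlap. The call of Spp1 was lost without NZO 007 (-0.91), NZO 003 (-0.94), NZO 009 (-0.95), NZO 011 (-0.77) or B6 011 (-0.86).

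**Figure D5:**
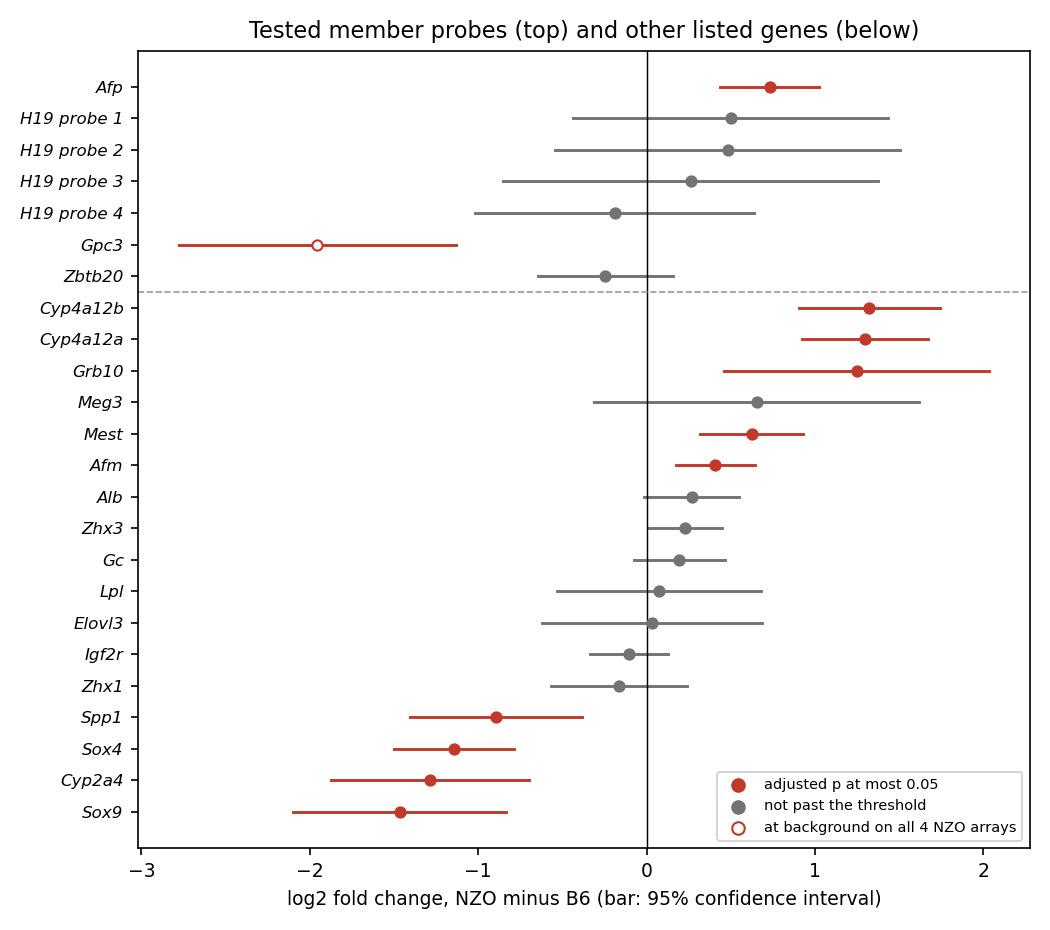
Log2 fold change (NZO minus B6) with its 95% confidence interval for the 7 tested probes of the members, above the dashed line, and for named genes of the lists at their brightest tested probe, below it. Red marks an adjusted p of at most 0.05, and the open point marks Gpc3, at background on all 4 NZO arrays, where the value gives no size. Mirg (4.21) lies outside the range shown and is left out.

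Markers of other cell types were examined beside these genes. Among the 5 hepatocyte genes 0 were called, with 0 at an unadjusted p within 0.05 with limma and 1 called with Welch's correction, and their median log2 fold change was 0.00. Of 4 bile duct and progenitor markers tested, 2 were lower in NZO (Sox9 and Spp1, the brightest), where 7.44% of all probes tested were called lower. The summed level was 1.69 to 2.51 in NZO and 3.42 to 5.43 in B6. Of 4 macrophage markers, 3 were lower in NZO, against the same 7.44% of all probes tested. Clec4f, a Kupffer cell lectin and the brightest of them, had a log2 fold change of -1.13 (adjusted p = 0.000852), Adgre1 of -0.63 (adjusted p = 0.0157) and Cd68 of -0.42 (adjusted p = 0.0445), with -0.25 (adjusted p = 0.485) at a dimmer Cd68 probe. The summed macrophage level was 37.7 to 46.6 in NZO and 60.6 to 79.6 in B6. Gpc3 was lower in the same livers, and the part of these cells in its level was not tested.

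Of 4 red blood cell markers, 2 were higher in NZO, Hba-a1 (1.00, adjusted p = 0.0183) and Alas2 (0.90, adjusted p = 0.00230), where 6.78% of all probes tested were called higher. The summed level was 293 to 470 in NZO and 155 to 208 in B6. Hba-a1, the brightest of them, is near-identical to Hba-a2. The part of blood cells in the level of Afp was not tested. Among endothelial markers, Stab2 was higher at its brightest probe (0.48, adjusted p = 0.00889) and Lyve1 lower (-0.62, adjusted p = 0.0241), and Clec4g, the brightest, had -0.23 (adjusted p = 0.397). The call of Stab2 was lost on the deposited table (0.29, adjusted p = 0.130). The probes of Stab2 disagreed, since the other 2 tested gave -0.93 (adjusted p = 0.0508) and -0.44 (adjusted p = 0.480). At the brightest probes, no gene was called by limma or Welch's correction among stellate cell (0 of 5, 2 at an unadjusted limma p within 0.05 and 1 with Welch's correction), leukocyte (0 of 3, 1 with each test), adipocyte (0 of 1), pancreas (0 of 2), skeletal muscle (0 of 3) or cycling cell markers (0 of 3), with 0 at an unadjusted p within 0.05 by either test in the last 4 lists. Their brightest genes were Dcn (-0.37, adjusted p = 0.0540), Cd3e (0.33), Cidec (0.42), Ctrb1 (0.37), Myh4 (-1.55) and Mki67 (-0.44).

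Over all lists, 86 of 107 distinct genes were tested, 10 were higher and 9 lower in NZO, where 14.2% of all probes were called. The lists were not chosen independently of these data. Calls were also lost without 1 mouse for Cd68 (in 7 of 8 such fits, with log2 fold changes from -0.45 to -0.37), Lyve1 (in 5, from -0.60 to -0.56) and Hba-a1 (without B6 010, 0.93, or B6 015, 0.94).

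The genes whose pattern over the 8 arrays was most like that of a member were sought among 24454 probes above background on all arrays. For Afp this was Tbl2 (Pearson r = 0.993), and with the strain means removed 2810416G20Rik (0.987) and Usf2 (0.987). For H19 it was a probe named only by its stretch of chromosome 1 both ways (0.984 and 0.990), followed by Ntrk3 (0.958) and, with the strain means removed, Farp1 (0.986). For Zbtb20 it was a downstream probe described above (0.979), followed by Tom1l2 (0.979). These values describe 8 arrays, and the most similar of so many probes will be high.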

How the data were processed

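The authors deposited Agilent scanner output for each array, with intensity values from Feature Extraction 11.0.1.1 per the file headers (9.1 per the labels), and a table whose intensities equalled the raw median signal at each of 59305 spots of every array (tolerance 0.01). The processed signal, background-subtracted by that software, was used. Control and outlier spots were left out, log2 values were set relative to their array's 75th percentile, and spots of a probe were averaged. A probe with several spots counted as above background when most were.

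limma 3.58.1 in R 4.3.3 compared the strains without a block. Python 3.11.15, pandas 2.3.3 and matplotlib 3.10.9 made sequences and plots. The fit was tested on simulated data. The members and lists were chosen with earlier results of these data known. All members were named, and from each list up to 6 called genes by size of change, fixed relatives and the brightest gene of each cell type. A gene was represented by its brightest tested probe. Adgre1 was matched by accession. The study's p of 0.05 with a log2 fold change of 0.7 was an alternative, as were normexp (offset 50), quantile normalization, other filters, the raw table, slide, scan day and mouse number as blocks, Welch's correction and leaving out each mouse. Promoter sequences came from a RefSeq table on GRCm38.p6, and no genome on mm9, the build of the probe coordinates, was used.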

Additional observations from a re-analysis of the deposited data

Results flagged for a closer look

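In 6 of 82 groups of 4 livers, the highest or lowest liver was separated from its nearest neighbour by a gap above Dixon's 95% critical value, which chance alone exceeds in about 1 group of 20. Gpc3 probe 2 was -3.01 in NZO 009, against -6.01 in the next NZO liver. Zhx2 was -5.99 in B6 015, against -4.74 in the next, with all values at background. NZO 007 stood apart at Acta1 (2.81, next -2.95), Tnnt3 (1.27, next -5.22) and, on the low side, Igf2r (1.39, next 1.67). Cyp4a12a was 4.96 in B6 009, against 4.69 in the next B6 liver.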

How the results depend on the processing

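The cause of the changes below was not tested, apart from what the design fixes. The fit with slide as a fixed block rests on the 3 arrays of slide 1. The fit with mouse number as a block rests on mice 009 and 011 of each strain. A filter on all 8 arrays leaves out the Gpc3 probe, and leaving out a filter adjusts over more probes. Signal over background limits Igf2, Gpc3, Dlk1 and Zhx2.

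When H19 was read by probe 4 in place of probe 1, its log2 fold change was -0.19, with 2 of 4 NZO arrays at background. Values for Gpc3 are differences from NZO levels at background and give no size. Without 1 mouse, 1403 to 1865 probes were higher and 1503 to 1933 lower in NZO, the members kept 1 higher and 1 lower probe, and 7 to 11 listed genes were higher and 7 to 9 lower. Log2 fold changes then ranged from 0.67 to 0.81 for Afp, -2.30 to -1.65 for Gpc3, 0.18 to 0.74 for H19 probe 1, 0.19 to 0.77 for probe 2, -0.070 to 0.65 for probe 3 (-0.070 without NZO 007, -0.017 without B6 010), -0.46 to 0.076 for probe 4 (0.076 without NZO 011) and -0.33 to -0.14 for Zbtb20. Lpl (-0.077 to 0.30) turned without NZO 007 (-0.034), NZO 009 (-0.064) or B6 010, and Elovl3 (-0.21 to 0.24) without NZO 011 (-0.077), B6 011 (-0.013) or B6 015.

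The deposited table gave 991 higher and 3357 lower probes, 22.8% higher against 47.7%, with the median log2 fold change of all probes at -0.15. It left 0 member probes higher (Afp 0.40) and 4 listed genes higher and 17 lower. Elovl3 (-0.22), Gc (-0.052), Lpl (-0.12) and Zhx3 (-0.037) turned. Normexp left 0 member probes lower (Gpc3 -0.060), and H19 probe 4 (0.13), Acta1 (0.23), Tnnt3 (0.21) and Elovl3 (-0.047) turned. Elovl3 also turned with quantile normalization (-0.083) and the percentile over detected probes (-0.013). Without a filter, 2 member probes were lower, and 6 listed genes higher and 5 lower. With probes above background on all 8 arrays, 0 member probes were lower.

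Slide as a fixed block gave 496 higher and 984 lower probes (33.5% higher), 0 member probes called (Afp 0.80, Gpc3 -1.92), and 4 listed genes higher and 0 lower. H19 turned at probes 1 (-0.16), 2 (-0.94) and 3 (-0.83), as did Meg3 (-0.88) and Zhx1 (0.018). Welch's correction with Benjamini-Hochberg adjustment gave 1193 lower probes, 0 member probes lower (Gpc3 -1.95, adjusted p = 0.0978) and 3 listed genes lower.

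The strains share the mouse numbers 009 and 011, whose deviations from the strain means correlated at -0.26 and -0.0043, so the samples share only a number. The replicate block gave 72 higher and 134 lower probes (35.0% higher), 0 member probes and 0 listed genes called in either direction, Afp 0.68, Gpc3 -2.56 and Zbtb20 0.18, and Elovl3 (-0.041), Lpl (-0.23) and Onecut1 (-0.59) turned.

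Among the listed genes named as called, the deposited table also lost Afm (0.23) and Hba-a1 (0.79), quantile normalization Hba-a1 (0.88) and scan day as a term Cd68 (-0.39), and normexp moved Lyve1 to -0.38. Without a filter the calls of Afm, Mest, Grb10, Hba-a1, Spp1, Lyve1, Cd68 and Adgre1 were lost, and with Welch's correction and Benjamini-Hochberg adjustment those of Mest, Grb10, Hba-a1, Sox4, Spp1, Lyve1, Cd68 and Cyp2a4. Slide as a fixed block gave Mest 0.94 and Lyve1 -0.31.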
